A study of Homo sapiens with 6 samples.

Results

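The interleukin-1 (IL-1) cluster was examined as 10 genes, given here by name: the ligand genes IL1A, IL1B, IL36G, IL18 and IL33, the antagonist gene IL1RN, the receptor genes IL1R1, IL1R2 and IL1RAP, and CASP1, which encodes the protease that processes IL-1β. All 10 were among the 47432 genes of each deposited count table, and they were given by name, with no cutoff on measured values. The libraries were RNA-seq of the human melanoma cell line LOX-IMVI. The cells had been transduced with a lentiviral pLKO.1 vector for a short hairpin RNA, either a control (shCtrl, 3 libraries) or one against NFKBIZ (shNFKBIZ, 3 libraries), and the 3 libraries of a group were described by the study as independent experiments. The labels give no added agent for either group, while the paper's methods state that all transduced cells were selected with puromycin. The comparison asks which genes depend on IκBζ, the nuclear co-regulator that NFKBIZ encodes. Only 1 hairpin against NFKBIZ was sequenced, so loss of IκBζ and other effects of this hairpin cannot be told apart.

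IL-1 is among the most potent inflammatory signals known, and melanoma cells can produce it themselves. IL-1α is active as it is made, while IL-1β is made as a precursor that caspase-1 cuts within the inflammasome. Both bind the receptor IL-1R1, which then recruits the accessory protein IL-1RAcP (encoded by IL1RAP) and signals through MyD88 and IRAK kinases to NF-κB. The receptor antagonist IL-1Ra (IL1RN) occupies IL-1R1 without signalling, and IL-1R2 is a decoy that binds ligand but lacks a signalling domain. NFKBIZ is itself a classical IL-1-induced gene.

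IL1A, IL1B, IL36G and IL1RN lie in one cluster on chromosome 2 (hg38), and IL1R2 and IL1R1 in another on the same chromosome. IL1A (ENSG00000115008) spans 112773925 to 112784493 on the minus strand, and IL1B (ENSG00000125538) spans 112829751 to 112836816 on the minus strand, 45.3 kb away. IL36G (112973203 to 112985658) and IL1RN (113099315 to 113134016) follow on the plus strand. IL1R2 (101991960 to 102028544) and IL1R1 (102064544 to 102179874) are also on the plus strand. The other members are on different chromosomes, IL1RAP on chromosome 3 (190514051 to 190659750, plus), IL33 on chromosome 9 (6215786 to 6257983, plus), and CASP1 (105025397 to 105035250, minus) and IL18 (112143253 to 112164096, minus) on chromosome 11.

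IL1B, IL1A and IL1RAP were the members that fell in shNFKBIZ cells, and the 250 bases upstream of their start sites are shown for this reason. The sequences are from RefSeq (GRCh38.p14), which had promoter entries for 8 of the 10 members, and are written 5′ to 3′ on the strand of the gene. Capitals mark matches to 4 motifs searched on both strands, the NF-κB consensus, AP-1 (TGANTCA), C/EBP (TTNNGNAA) and STAT (TTCNNNGAA), and to the TATA box (TATAAA) on the strand of the gene.
IL1B, chr2:112836780-112837029, minus strand: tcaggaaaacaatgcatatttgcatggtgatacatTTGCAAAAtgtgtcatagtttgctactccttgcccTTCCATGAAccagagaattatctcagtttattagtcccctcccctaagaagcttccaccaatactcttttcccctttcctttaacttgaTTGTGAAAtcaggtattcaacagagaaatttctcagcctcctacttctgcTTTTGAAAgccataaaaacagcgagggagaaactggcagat
IL1A, chr2:112784494-112784743, minus strand: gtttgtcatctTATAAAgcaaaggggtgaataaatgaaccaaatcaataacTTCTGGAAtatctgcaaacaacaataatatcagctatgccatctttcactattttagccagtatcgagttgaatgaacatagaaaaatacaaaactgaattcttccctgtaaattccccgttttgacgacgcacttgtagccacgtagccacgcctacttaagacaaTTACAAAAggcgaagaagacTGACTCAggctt
IL1RAP, chr3:190513835-190514084, plus strand: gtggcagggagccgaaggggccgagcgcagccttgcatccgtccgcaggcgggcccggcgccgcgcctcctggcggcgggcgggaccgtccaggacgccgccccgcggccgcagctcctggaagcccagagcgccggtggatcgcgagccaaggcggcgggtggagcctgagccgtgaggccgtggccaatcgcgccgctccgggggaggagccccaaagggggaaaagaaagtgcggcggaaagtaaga
The IL1B stretch held 3 C/EBP matches, 41, 91 and 215 bases upstream of the start site at their first base, and 1 STAT match 180 bases upstream. The IL1A stretch held 1 AP-1 match 12 bases upstream, C/EBP matches 32 and 199 bases upstream, and a TATA box 239 bases upstream. None of the letters searched was found in the IL1RAP stretch, and none of these matches overlapped another. Among 35116 RefSeq promoter stretches of the same length, 33.2% held the C/EBP letters, 9.96% the NF-κB consensus, 6.57% the AP-1 letters, 6.57% the STAT letters and 6.8% the TATA box. The C/EBP letters are thus common by themselves, and a match describes the sequence only. IL1A has another RefSeq start site 93 bases further downstream, whose stretch overlaps the one shown and holds a further AP-1 match 55 bases upstream of that site. Members that were not called also held matches, but only IL1R1 among them had enough reads to test. These were C/EBP and STAT in IL1R1, AP-1, C/EBP and a TATA box in IL1RN, and NF-κB, C/EBP and a TATA box in IL1R2. IL36G and IL33 held none. Of the tested members, IL1RAP thus fell without a match, and IL1R1 held matches without passing the test. The search was unequal, with 4 start sites for IL1R1 and 1 each for IL1B and IL1RAP. A link between matches and the fall was not tested.

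The labelled cell type and the knockdown were checked first. Of 12 melanoma markers, SOX10, MLANA and S100B had 0 reads in all 6 libraries, which allows up to 3 reads per library, and TYR had 1 read in all. DCT had 5 and 3 summed reads in shCtrl and shNFKBIZ, NGFR 4 and 2, and PMEL 20 and 10. The melanocyte lineage factor MITF was present at a low level, with 165, 135 and 138 reads in shCtrl and 94, 90 and 76 in shNFKBIZ. VIM and AXL, which mark dedifferentiated melanoma lines among other mesenchymal cells, were abundant at 3131 and 407 TPM in shCtrl. S100A6 (376 TPM in shCtrl) and BRAF (5.92 TPM in shCtrl) were the other markers expressed. The pigment-cell markers other than MITF were thus at or near 0. Each library held between 22264473 and 24624839 total exon reads, and levels are given as TPM, which is scaled to exon length and library. NFKBIZ had 1519, 1629 and 1674 exon reads in the shCtrl libraries against 474, 477 and 468 in shNFKBIZ, a log2 fold change of -1.78 (SE 0.0581, edgeR quasi-likelihood test adjusted p 7.2e-17).

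In control cells, the agonists IL1B and IL1A stood far above every other member. IL1B ranked 55 and IL1A ranked 108 by mean TPM among all listed genes. The shCtrl mean of IL1B was 1620 ± 102 TPM (SD, n = 3), 1.65-fold that of IL1A at 980.0 ± 75.3 TPM. The next member was the receptor accessory gene IL1RAP at 8.07 ± 0.775 TPM, which IL1A exceeded 121-fold. IL1R1 followed at 2.17 ± 0.314 TPM and CASP1 at 1.19 ± 0.229 TPM. Each of these 5 genes was apart from the next in the order, since their 3 libraries did not overlap in TPM. IL33 (0.445 ± 0.237 TPM) and IL1RN (0.292 ± 0.141 TPM) overlapped, and IL36G, IL18 and IL1R2 were at most 1 read per library in shCtrl and could not be ordered.

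In shNFKBIZ cells, the order of the 2 agonists was turned. IL1A was first at 291 ± 5.51 TPM and IL1B followed at 55.1 ± 3.44 TPM, with no overlap between their libraries. IL1B ranked 2990 among all listed genes there, and IL1A 456. IL1RAP, IL1R1 and CASP1 held the same places as in control cells, at 4.24 ± 0.420, 2.29 ± 0.0936 and 1.55 ± 0.240 TPM, again without overlap between neighbours. IL33 and IL1RN overlapped again, and the other 3 were at most 3 reads per library.

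**Figure D1:**
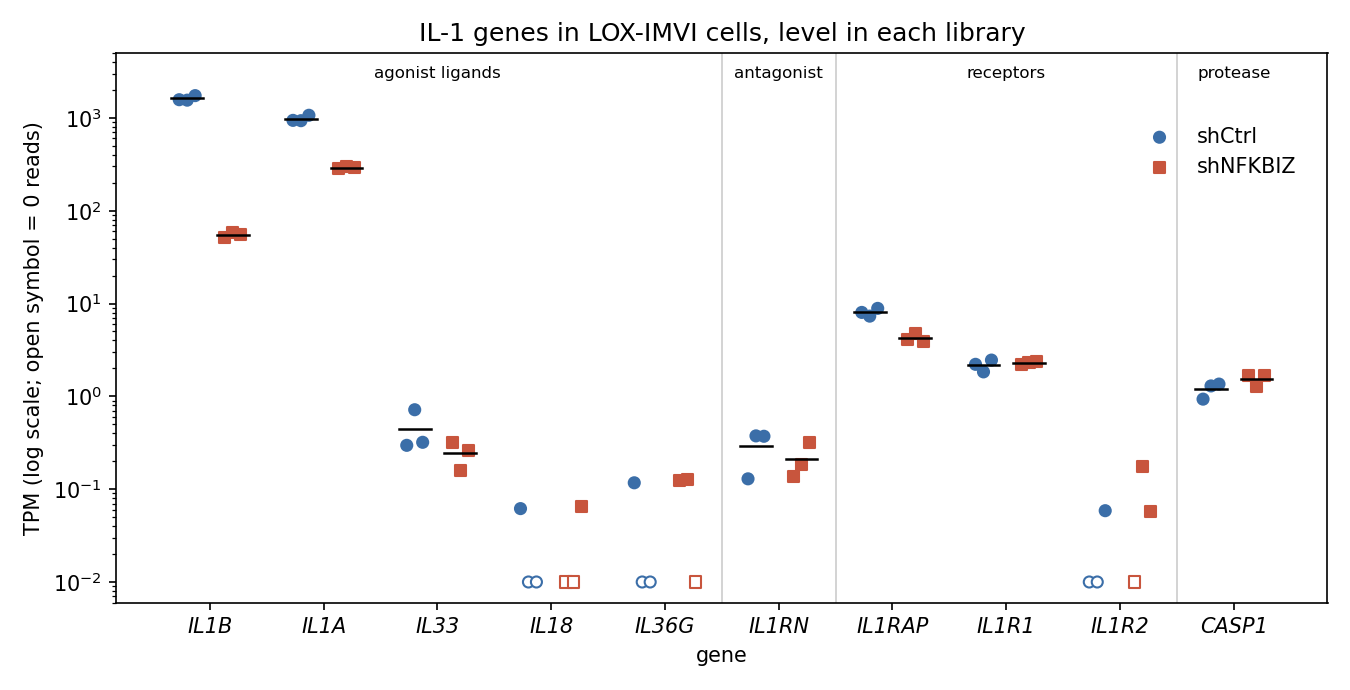
TPM of the 10 IL-1 genes (log axis) in the 3 shCtrl libraries (blue circles) and the 3 shNFKBIZ libraries (red squares), grouped by role. Horizontal lines are group means, drawn where no library is at 0, and open symbols at the lower edge are libraries with 0 reads. IL1B and IL1A are at 980 TPM or more in shCtrl on average and the other 8 genes below 10 TPM, and the groups are apart for IL1B, IL1A and IL1RAP.

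Of the 10 members, 5 had enough exon reads for the test across all genes. A gene was called at an adjusted p of at most 0.05 (edgeR quasi-likelihood test, Benjamini-Hochberg over 13843 genes) and a change of at least 2-fold. By this rule 3 of the 5 were called, IL1A, IL1B and IL1RAP, all lower in shNFKBIZ cells. Over all tested genes 8.96% were called, and 5.12% were called and lower. Without the fold limit 65.3% of the tested genes passed, so the adjusted p alone singles out little in these libraries. IL1R1 and CASP1 did not pass at any fold. In these bulk libraries, fewer cells with a transcript and less of it per cell cannot be told apart. The median log2 fold change was -1.01 over the 5 tested members and 0.00431 over all tested genes.

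IL1B, the precursor of the secreted cytokine IL-1β, had 29366, 30020 and 30141 exon reads in the shCtrl libraries. The shNFKBIZ libraries held 905, 1006 and 999. Every shNFKBIZ library was far below every shCtrl library. The log2 fold change was -4.96 (SE 0.0465, edgeR adjusted p 3.54e-26), or 31.1-fold lower. Only 2 of 13843 tested genes had a lower log2 fold change.

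IL1A, whose product IL-1α is active without caspase-1 and acts from within the cell and at its surface, had 11791, 12094 and 12410 exon reads in shCtrl. In shNFKBIZ it had 3376, 3443 and 3496 reads, so that the groups did not overlap. The log2 fold change of IL1A was -1.83 (SE 0.0396, edgeR adjusted p 1.01e-19), or 3.56-fold lower. This is close in size to the change of the targeted gene itself.

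The fall of IL1B was larger than that of IL1A. The ratio of IL1B to IL1A TPM was 1.67, 1.66 and 1.63 in shCtrl and 0.180, 0.196 and 0.192 in shNFKBIZ. On the log2 scale the ratio fell by 3.13, with a two-sided exact permutation p of 0.1, the smallest that 3 against 3 libraries can give. IL1B was 61.9% to 62.5% of the summed TPM of both agonists in shCtrl, and 15.2% to 16.4% in shNFKBIZ. The summed level fell from 2600 ± 177 to 346 ± 8.92 TPM (SD, n = 3). Residual IL-1 mRNA in shNFKBIZ cells was therefore mostly IL1A.

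The other agonist genes were at the edge of detection. IL33, which encodes a nuclear alarmin, had 6, 15 and 6 exon reads in the shCtrl libraries against 6, 3 and 5 in shNFKBIZ. Its summed counts of 27 and 14 gave a ratio per exon read of 0.547 (exact 95% interval 0.265 to 1.08), so no difference was detectable at this depth. IL36G, an epithelial agonist of the neighbouring IL-36 group, had 1 summed read in shCtrl and 2 in shNFKBIZ. IL18, the other classical caspase-1 substrate, had 1 summed read in each group. No fold is given for these 2 genes, as both groups were at or under the floor of 3 reads.

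IL1RN, the antagonist of both agonists, had 3, 9 and 8 exon reads in the shCtrl libraries against 3, 4 and 7 in shNFKBIZ, and the groups overlapped. The ratio of its summed counts, 20 and 14, was 0.738 (exact 95% interval 0.345 to 1.54). These reads include 2 summed exon-exon reads in each group, so the level rests on few spliced fragments. IL1A and IL1B together exceeded IL1RN by 6627-fold to 19423-fold in the shCtrl libraries and by 1102-fold to 2458-fold in the shNFKBIZ libraries. The log2 ratio of IL1RN to the agonists was -13.3 ± 0.847 in shCtrl and -10.8 ± 0.592 in shNFKBIZ (SD, n = 3), a difference of 2.52 with an exact permutation p of 0.1 (two-sided, the smallest possible). The groups did not overlap in this ratio, whose denominator is the summed agonist level that fell. IL1RN itself overlapped, so the ratio restates the fall of the agonists and is not a separate result on the antagonist.

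IL1RAP, the accessory chain shared by the IL-1, IL-33 and IL-36 receptors, was the called receptor gene. It had 559, 527 and 573 exon reads in the shCtrl libraries against 269, 304 and 261 in shNFKBIZ, with no overlap. Its log2 fold change of -1.01 (SE 0.0777, edgeR adjusted p 1.91e-10) lay at the 2-fold limit. With library size alone as scaling it was -0.92, and with exon-exon reads, chosen after the data were seen, -0.90, both short of the limit. Leaving out replicate 3 of shCtrl (-0.95), replicate 1 of shNFKBIZ (-0.99) or replicate 3 of shNFKBIZ (-0.96) had the same effect. In all 16 alternative fits IL1RAP was lower and past the adjusted p.

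IL1R1, the signalling receptor, had 98, 84 and 101 exon reads in the shCtrl libraries against 91, 95 and 100 in shNFKBIZ, and the groups overlapped. The log2 fold change was -0.00097 (SE 0.135, edgeR adjusted p 0.995), with an approximate 95% interval (1.96 SE on each side) from -0.27 to 0.26. At a level of about 100 reads per library, changes inside this interval could not be seen. IL1RAP TPM exceeded IL1R1 TPM 3.60-fold to 3.99-fold in shCtrl and 1.66-fold to 2.03-fold in shNFKBIZ. The decoy receptor gene IL1R2 had 1 summed read in shCtrl against 4 in shNFKBIZ, and their ratio of 4.22 had an exact 95% interval from 0.417 to 208.

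CASP1, the protease that converts pro-IL-1β to its active form, was expressed at a low level in both groups. It had 23, 33 and 31 exon reads in the shCtrl libraries against 39, 29 and 40 in shNFKBIZ, and the groups overlapped. The log2 fold change was 0.30 (SE 0.232, edgeR adjusted p 0.269), with an approximate 95% interval from -0.16 to 0.75. Of these reads 93.8% mapped uniquely. PYCARD, which encodes the adaptor ASC that joins caspase-1 to most inflammasome sensors, had 0 reads in all 6 libraries (up to 3 reads per library).

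Intron reads, which come largely from unspliced RNA, also fell for IL1B and IL1A. IL1B had 605, 701 and 698 intron reads in shCtrl and 45, 50 and 61 in shNFKBIZ, a log2 fold change of -3.77 (SE 0.103, edgeR adjusted p 9.86e-27). IL1A had 1562, 1548 and 1656 in shCtrl and 731, 768 and 750 in shNFKBIZ, a log2 fold change of -1.18 (SE 0.0578, edgeR adjusted p 6.21e-19). Neither gene's groups overlapped. Of 12119 genes tested on intron reads, 3.89% were called and lower, and only 1 had a lower log2 fold change than IL1B. IL1RAP had 113, 121 and 99 intron reads in shCtrl and 74, 81 and 66 in shNFKBIZ, and its intron log2 fold change of -0.68 (SE 0.131, edgeR adjusted p 6.66e-05) was short of 2-fold. Without the fold limit, 19.5% of the genes tested on introns were lower at an adjusted p of at most 0.05. IL1R1 introns (17 to 25 reads in shCtrl, 15 to 30 in shNFKBIZ) overlapped, and those of the other 6 members were too few to test.

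For IL1B and IL1A, the mature reads fell further than the intron reads. The difference of the exon and intron log2 fold changes was -1.17 for IL1B (SE 0.138, edgeR interaction test adjusted p 1.08e-11) and -0.64 for IL1A (SE 0.0624, edgeR adjusted p 2.32e-15). It was -0.31 for IL1RAP (SE 0.149, edgeR adjusted p 0.112) and 0.15 for IL1R1 (SE 0.302, edgeR adjusted p 0.755). Of 11025 genes tested in both read classes, 15.7% had an exon change lower than their intron change at an adjusted p of at most 0.05. By this difference IL1B ranked 106 and IL1A 650 from the lowest. The targeted gene NFKBIZ ranked 612, with a difference of -0.66 (SE 0.111, edgeR adjusted p 9.59e-07), close to that of IL1A. The intron share of gene reads of IL1B was 2.02% to 2.28% in shCtrl and 4.73% to 5.75% in shNFKBIZ. That of IL1A was 11.3% to 11.8% and 17.7% to 18.2%. Over all genes the intron share also moved with the group, from 7.16% to 7.46% in shCtrl and from 7.63% to 8.15% in shNFKBIZ. Its part in these differences was not tested. In the interaction test exon and intron reads were scaled separately, and the median difference over the 11025 genes was -0.0027. The exon-exon reads, which cross a splice junction, gave summed counts of 18189 and 582 for IL1B and 7370 and 2159 for IL1A.

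**Figure D2:**
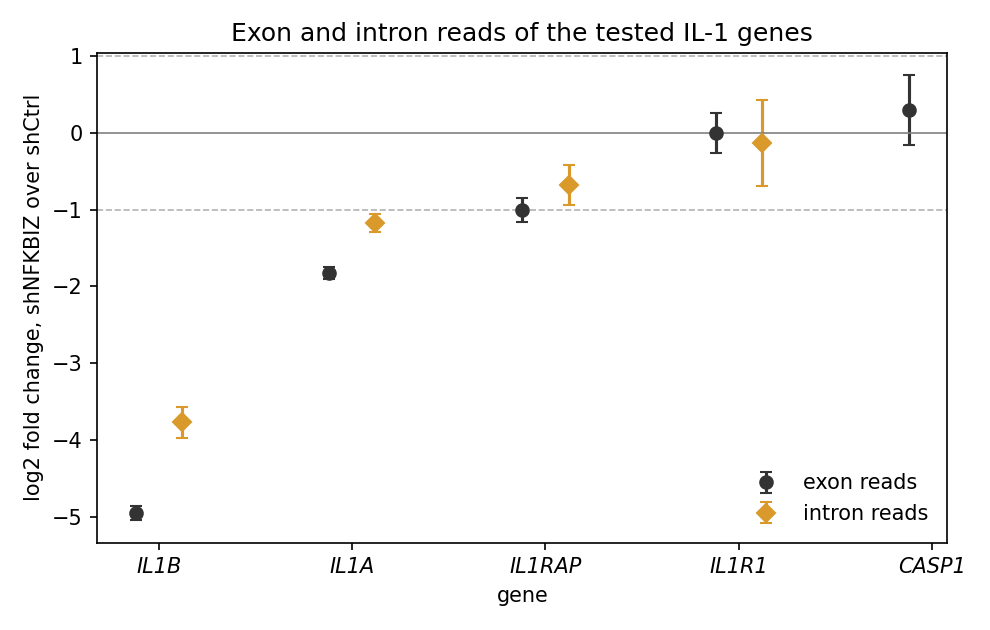
Log2 fold change (shNFKBIZ over shCtrl, y axis) of exon reads (dark circles) and intron reads (yellow diamonds) of the 5 tested IL-1 genes, with bars of 1.96 SE and dashed lines at 2-fold. The exon change lies below the intron change for IL1B (-4.96 and -3.77) and IL1A (-1.83 and -1.18), while IL1R1 and CASP1 span 0, and CASP1 had too few intron reads to test.

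The transcripts of IL1B and IL1A carry AU-rich elements, copies of ATTTA in the 3′UTR that are known to shorten the life of cytokine mRNAs. For IL1B, whose exon and intron changes differed most among the 4 members tested in both, the 30 bases of the 3′UTR with the most copies are shown, with those of IL1A and IL1RAP for comparison (hg38, canonical transcripts of GENCODE release 44, ATTTA in capitals, written as DNA, 5′ to 3′).
IL1B: tgagcaaccgcttccctATTTATTTATTTA
IL1A: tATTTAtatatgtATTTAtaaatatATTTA
IL1RAP: ctaattacaaaatcatatacgATTTATTTA
These stretches start at base 329 of 610 in the 3′UTR of IL1B, at base 614 of 1142 in that of IL1A and at base 2549 of 2809 in that of IL1RAP. The whole 3′UTR held 6 copies in IL1B, 5 in IL1A and 15 in IL1RAP, which is 9.84, 4.38 and 5.34 copies per kb. Across 19195 protein-coding genes the median was 1.55 copies per kb, and 98.6% of them had a lower density than IL1B, 87.1% than IL1A and 91.9% than IL1RAP. The longer element TATTTAT was found 4 times in IL1B, 3 times in IL1A and 2 times in IL1RAP. Of the genes, 32.1% held it at least 1 time and 6.31% at least 3 times. IL1R1, which did not pass the test, held 8 ATTTA copies in 3115 bases (2.57 per kb). IL1R2, too low to test, held 1 copy in 152 bases (6.58 per kb), a higher density than in IL1A and IL1RAP. CASP1, IL33 and IL36G lay between 1.64 and 2.67 per kb, and IL1RN and IL18 held 0. Among the 5 tested members, the 3 called lower had higher densities than IL1R1 and CASP1 (2.67 per kb). Whether IL1R2 fell is not known, so its density bears on neither side. With so few genes, a link between density and the fall was not tested. These are counts of letters, and RNA stability was not measured here.

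None of the other 14 tested genes around IL1A and IL1B on chromosome 2 was called lower. Over all tested genes 8.96% were called and 5.12% were called and lower, so the absence of a lower call among so few genes says little. Within 500 kb of the span from IL1A to IL1RN, 16 genes were tested and 3 were called, IL1A and IL1B lower and PAX8 higher. CKAP2L, a mitotic spindle gene that ends 9.26 kb from IL1A, had 2528, 2548 and 2500 exon reads in the shCtrl libraries against 2320, 2276 and 2389 in shNFKBIZ, a log2 fold change of -0.13 (SE 0.0387). PAX8, which encodes a developmental transcription factor, had 8, 6 and 3 reads in shCtrl and 17, 21 and 13 in shNFKBIZ, a log2 fold change of 1.55 (SE 0.384, edgeR adjusted p 0.00127). PAX8 passed the filter on low counts only through shNFKBIZ. The median log2 fold change over the 16 genes was 0.06. Other neighbours moved less than 2-fold in either direction. Among them were ZC3H6 (-0.85, SE 0.188), the lowest after IL1A and IL1B, TTL (-0.64, SE 0.0374), SLC20A1 (0.30, SE 0.0351) and PSD4 (0.50, SE 0.0797). Around IL1R2 and IL1R1 only MAP4K4, IL1R1 and IL18R1 were tested, and none of the 3 was called. Near IL1RAP, the collagen-modifying gene P3H2 was the other tested gene, and it fell from 4.40 ± 0.341 to 1.63 ± 0.309 TPM (log2 fold change -1.51, SE 0.141, edgeR adjusted p 4.27e-09). Near IL18, 1 of 14 tested genes was called (C11orf1, 1.18, SE 0.110). None of the 7 tested near IL33 was called, nor was CASP4 near CASP1. These windows hold few tested genes, and their counts were not tested against the shares over all genes.

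**Figure D3:**
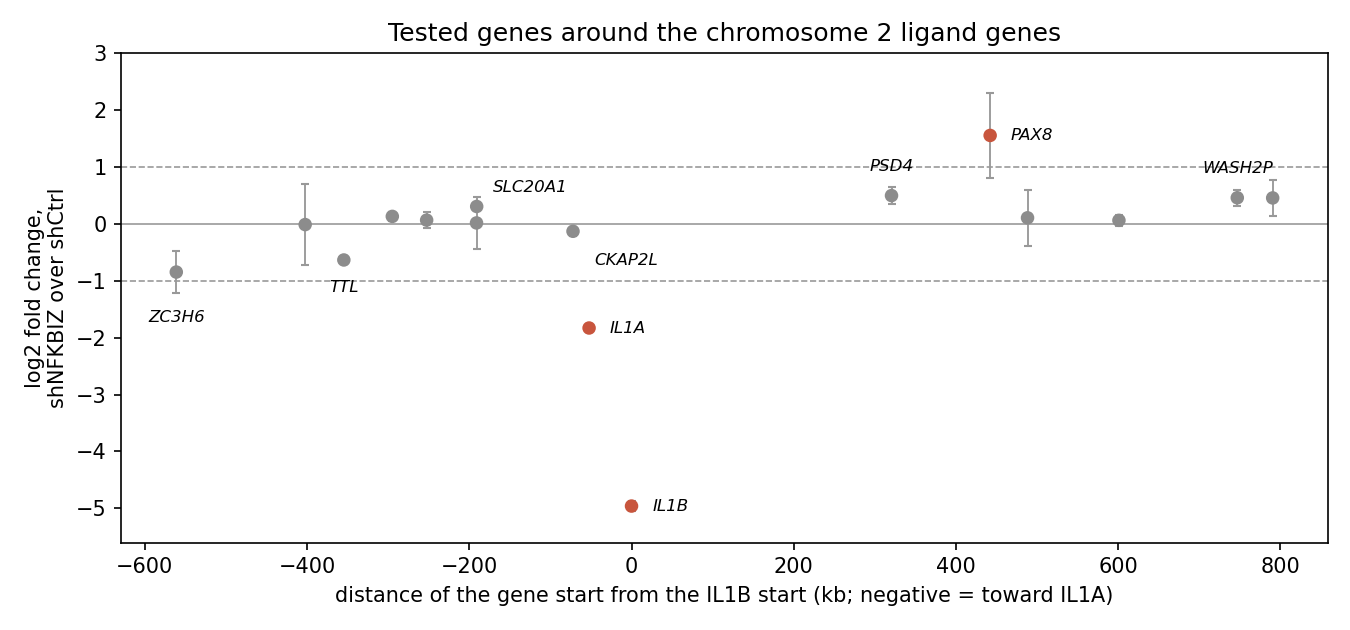
Log2 fold change of exon reads (shNFKBIZ over shCtrl, y axis) of the 16 tested genes around the chromosome 2 ligand genes, against the distance of each gene start from that of IL1B in kb (x axis), with bars of 1.96 SE, dashed lines at 2-fold and called genes in red. IL1B (-4.96) and IL1A (-1.83) stand below the other 14 genes, and the nearest tested neighbour, CKAP2L, is at -0.13.

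To place the members in their pathway, the wider IL-1 family was taken from lists compiled by hand. The lists held 50 genes, 49 of which were in the tables, and 29 could be tested. Of the 29, 5 were called, all lower, where 8.96% of all tested genes were called and 5.12% were called and lower. Without the fold limit 19 passed, 6 higher and 13 lower. Their median log2 fold change was -0.03. Without the members, 24 were tested and 2 were called, which is close to the 8.96% of all tested genes. Without the fold limit 16 of these 24 passed, which is close to the 65.3% of all tested genes. These counts therefore do not set the wider family apart from other genes. The called genes outside the cluster were MAP3K7 and MEFV. MEFV passed the filter on low counts only through shCtrl, the group where it is high.

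MAP3K7 encodes TAK1, the kinase that relays IL-1 receptor signals to NF-κB and MAP kinases. It had 2367, 2332 and 2266 exon reads in the shCtrl libraries against 1184, 1148 and 1143 in shNFKBIZ, a log2 fold change of -1.02 (SE 0.0426, edgeR adjusted p 5.46e-15). Its intron reads moved the other way, from 191, 198 and 248 to 328, 349 and 357 (log2 fold change 0.61, SE 0.0907, edgeR adjusted p 1.21e-06). The difference of its exon and intron changes was -1.61 (SE 0.0909, edgeR adjusted p 2.02e-29), rank 22 from the lowest among 11025 genes. MAP3K7 lay at the fold limit and lost its call under scaling by library size alone and on total gene reads. MEFV, which encodes the inflammasome sensor pyrin, had 22, 15 and 12 reads in shCtrl and 4, 3 and 2 in shNFKBIZ (log2 fold change -2.41, SE 0.436, edgeR adjusted p 5.05e-05).

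Other processing genes were expressed but moved less. The non-canonical inflammasome protease CASP4 rose from 77.2 ± 2.14 to 97.4 ± 1.06 TPM (log2 fold change 0.25, SE 0.0355), and CASP8, which can also cut pro-IL-1β, rose by 0.47 (SE 0.0540). The sensor gene NLRP1 fell by 0.91 (SE 0.116) and AIM2, a sensor of cytosolic DNA, fell by 0.46 (SE 0.130). For NLRP3, the sensor most often tied to IL-1β, the log2 fold change was 0.02 (SE 0.0541, edgeR adjusted p 0.709), with only 26.1% of its exon reads unique. The calpain genes, whose proteases cut pro-IL-1α, were abundant, and CAPN2 fell by 0.50 (SE 0.0314) and CAPNS1 by 0.59 (SE 0.0395). The pore-forming GSDMD, through which IL-1β can leave the cell, fell by 0.37 (SE 0.0518).

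Among the receptors and signalling genes, MYD88 had a log2 fold change of -0.03 (SE 0.102, edgeR adjusted p 0.784) and the inhibitory receptor SIGIRR one of -0.04 (SE 0.0611, edgeR adjusted p 0.561). IRAK1 rose by 0.13 (SE 0.0370) and IRAK4 fell by 0.26 (SE 0.0679). The inhibitor TOLLIP and the TAK1 partner TAB1 both rose by 0.46 (SE 0.0467 and 0.0768), and TAB2 fell by 0.41 (SE 0.0394). IL18BP, which neutralizes IL-18, rose by 0.28 (SE 0.109, edgeR adjusted p 0.0311) while IL18 itself was at 1 summed read per group. The adaptor gene PYCARD, the sensor NLRC4, IL36A, IL1RL2 and the inhibitory kinase IRAK3 had 0 reads in all libraries.

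**Figure D4:**
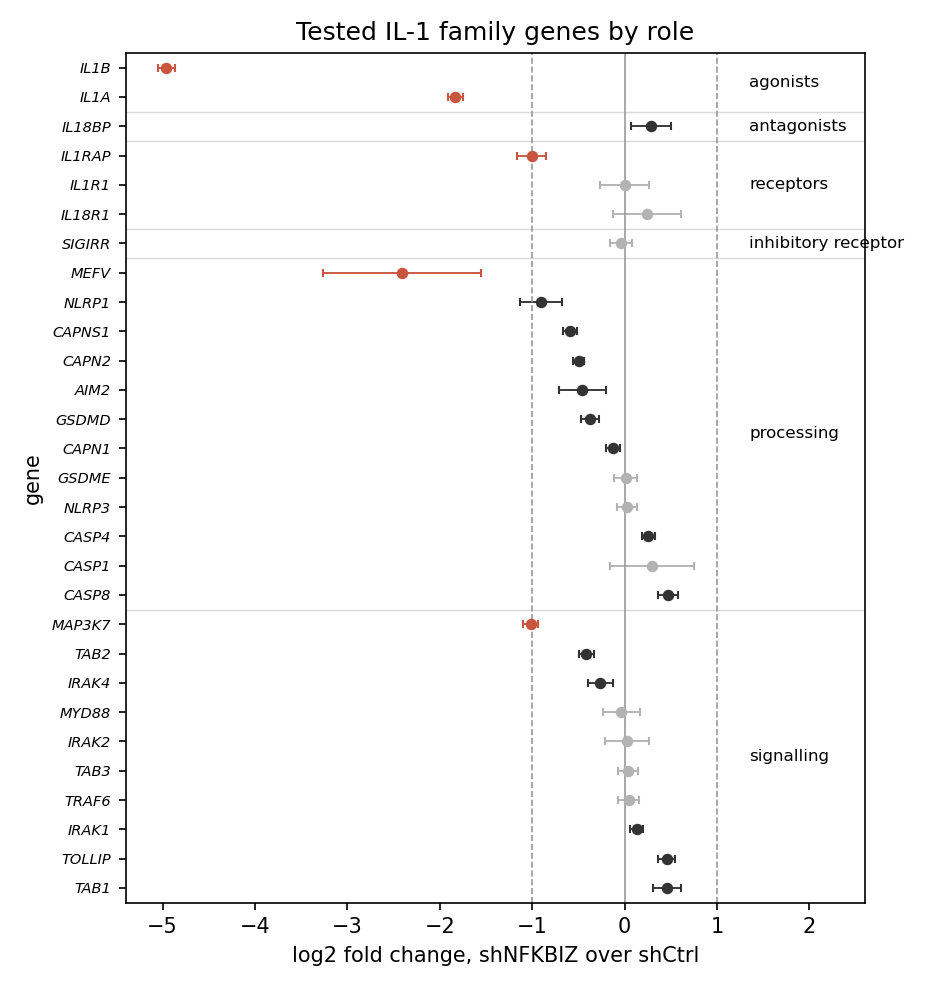
Log2 fold change of exon reads (shNFKBIZ over shCtrl, x axis) of the 29 tested IL-1 family genes by role, with bars of 1.96 SE and dashed lines at 2-fold. The 5 called genes are red, those past the adjusted p at less than 2-fold are black and the 10 others are grey, and called genes lie on the lower side only.

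Markers of other cell types were counted in the same libraries. Of 7 myeloid markers none was at 0 in all libraries, and their summed level rose from between 96.9 and 101 TPM in shCtrl to between 199 and 200.2 TPM in shNFKBIZ. Most of this was the lysosomal gene CD68 (98.5 and 198 TPM on average), of whose exon reads only 6.61% were unique. The other 6 had few reads. Summed over the 3 libraries of shCtrl and of shNFKBIZ, the pan-leukocyte gene PTPRC had 1 and 2 reads, CD14 9 and 5, LYZ 3 and 9, CSF1R 12 and 25, ITGAM 6 and 10 and CD163 2 and 14. Of 5 lymphoid markers, 4 were at 0 throughout. The summed level of the 4 epithelial markers was 0.593 to 1.05 TPM in shCtrl and 1.58 to 1.85 TPM in shNFKBIZ, and the keratin gene KRT14 was called higher (log2 fold change 1.37, SE 0.339, edgeR adjusted p 0.00128). The summed endothelial level was at most 0.102 TPM. The part of these markers in the results was not tested.

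The genes with the most similar profile were taken by the Euclidean distance of centred log2 CPM over the 6 libraries, among 11106 genes with a mean of at least 50 exon reads. For IL1A they were DNAJC6 (0.0881), a clathrin-uncoating cofactor, NFATC4 (0.0950), a transcription factor, and NFKBIZ (0.0981). DNAJC6 had a log2 fold change of -1.81 (SE 0.126) and NFATC4 one of -1.85 (SE 0.121). For IL1B they were IL6 (0.658), COL3A1 (0.805) and PTGES (0.978), so that no gene was as near to IL1B as these 3 were to IL1A. IL6, a cytokine gene, had 187, 270 and 237 reads in shCtrl and 4, 8 and 5 in shNFKBIZ. PTGES, which encodes an inducible prostaglandin E synthase, had 605, 717 and 608 reads in shCtrl and 36, 35 and 32 in shNFKBIZ. With 2 groups of 3 libraries, the distance mostly reflects the size of the difference between the groups. In CPM, 68.7% of the tested genes had no overlap between the groups, as did IL1A, IL1B and IL1RAP.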

How the data were processed

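RNA-seq counts of 6 libraries were analysed. The authors used CLC Genomics Workbench with its defaults, the hg38 genome and Ensembl gene models. They deposited, as counts, whole numbers of exon, exon-exon and intron reads per gene, in which a read pair counts 1 time and strand was not used. Total exon reads were tested. The TPM given here was recomputed from them, since the deposited TPM and RPKM columns carry decimal commas.

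Genes with low counts were removed with filterByExpr, which keeps a gene with enough reads in either group. MEFV, PAX8 and KRT14 passed it only through the group where they were higher. TMM factors and the quasi-likelihood test of edgeR 4.0.16 (robust, two-sided, no replicate block) in R 4.3.3 were used, with Benjamini-Hochberg adjustment over all genes tested. Intron reads were fitted alike, and exon and intron changes were compared as an interaction with library blocks. A standard error is the size of the log2 fold change divided by the square root of F. The fits were also run on simulated counts drawn with the same dispersion for every gene. That setting is simpler than these libraries, so it does not show how the fits behave on them. Single ratios were compared by exact permutation in scipy 1.17.1. Groups and replicate numbers came from the sample titles, and replicates were not copies of each other (chi-square per degree of freedom 1.69 to 4.38). Exact intervals cover counting error only. The log2 ratio of IL1R2 to IL1R1 could not be computed, as IL1R2 had 0 reads in 3 libraries.

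The members and gene lists were chosen with earlier results of these data known. Named genes were the members, NFKBIZ, called genes of the family lists and of the 500 kb neighbourhoods, and the 3 nearest profiles of IL1A and IL1B. Other genes named were chosen after their values were seen. Alternatives were DESeq2 1.42.0, the likelihood ratio test, RLE factors, library size alone, no filter, 10 counts in every library, unique reads, total gene reads, a replicate block, leaving out each library and other thresholds. Exon-exon reads were added after the data were seen.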

Additional observations from a re-analysis of the deposited data

How the results depend on the processing

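IL1A, IL1B and NFKBIZ were lower and called in all 16 alternative fits of exon reads, IL1A between -1.86 and -1.74, IL1B between -4.98 and -4.87 and NFKBIZ between -1.94 and -1.66 on the log2 scale. IL1RAP was past the adjusted p in all 16 and short of 2-fold in 6, the 5 given with it and total gene reads (-0.95). The count of called members was 2 or 3 under every alternative, and 2 on intron reads and in the exon and intron comparison.

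The number of called genes was 700 with exon-exon reads and 9039 with no fold limit. With library size alone, calls were 53.4% higher and 46.6% lower, against 42.9% and 57.1% with TMM, and the median log2 fold change moved from 0.00431 to 0.0937. The IL-1 family count was 3 with exon-exon reads, with library size alone and with total gene reads, and 19 with no fold limit. The count around the chromosome 2 ligands was 11 with no fold limit. PAX8 and MEFV have no value with 10 counts in every library or on exon-exon reads, since the filters on low counts removed them before the test. The direction of IL1R1, which passed no test, was not stable. Its log2 fold change was 0.0020 with 10 counts in every library, 0.0881 with library size alone and 0.0013 with the replicate block. On exon-exon reads it was -0.53 (adjusted p 0.177, edgeR). Without 1 library each it ranged from -0.10 to 0.0795 on exon reads, from -0.51 to 0.0761 on intron reads and from -0.0594 to 0.49 for exon minus intron.

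Leaving out 1 library each gave 1315 to 1361 called genes, 2 to 3 called members, 4 to 5 called family genes, 4 called genes around the chromosome 2 ligands, and NFKBIZ between -1.83 and -1.72. The antagonist ratio differed by 2.03 to 2.81. The fourth chromosome 2 gene was FOXD4L1, which the filter removed in the fit of all 6 libraries. With the replicate block 1244 genes and 3 members were called. Same-numbered libraries deviated together with correlations of 0.0230, 0.0789 and 0.0334, against -0.0570 to 0.0254 for libraries of different numbers. All of these are weak, and a pairing by number was neither shown nor excluded. Members with fewer than about 10 reads per library (IL1RN, IL33, IL36G, IL18, IL1R2) are limited by depth, and changes of several fold would go unseen in the last 3.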
